A study of Mus musculus with 24 samples.

Results

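Kidneys recovering for 4 weeks after a 7-day ureter obstruction (R4W) were compared with kidneys recovering for 1 week (R1W), over all 14785 genes of the deposited table. The libraries were chosen by sample title, 4 of each group, which is 8 of the 24 libraries in the series. The animals were male mice of strain C57/BL6, 8 to 9 weeks old at the start of the study. In both groups 1 ureter was ligated for 7 days and then reimplanted in the bladder by reversal surgery, so both carry the obstruction and the second operation. The R4W animals were culled 3 weeks later than the R1W animals, so longer recovery and greater age cannot be told apart. From 10 animals per group 4 were selected for sequencing, and how they were selected is not given in the sources used here. Sham-operated kidneys and kidneys ligated for 7 days without reversal (UUO7), 4 of each, give the levels before recovery, and kidneys at 2 weeks of recovery (R2W) lie between. Whole kidneys were sequenced after polyA selection.

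The title of R4W replicate 2 gives 4 weeks of recovery and its treatment label gives 2 weeks. The title was followed, and where placing this kidney in R2W changes a call of a gene described below, or moves the count of a list by more than 1.5 times, the value is given there. The 8 libraries had an implied depth of 29200000 to 35350000 fragments, read from whole-read steps in the low values. R1W replicate 3 stood apart from the other R1W kidneys: it lay at -46.2 on the first principal component of the 8 libraries, against -6.38 to -19.6 for the other R1W kidneys and 11.8 to 37.5 for R4W. The median gene had an SD of 0.181 on the log2 scale within R1W and of 0.121 within R4W. Kidney markers were present throughout: the phosphate transporter gene Slc34a1 of the proximal tubule lay between 823 and 1842 FPKM (fragments per kilobase of transcript and per 1e+06 fragments) and the uromodulin gene Umod of the thick ascending limb between 1328 and 1977 FPKM.

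When a ureter is tied, pressure rises in the tubules, which dilate and stop expressing much of their transport and metabolic machinery, while inflammatory cells enter and fibroblasts lay down matrix. Once urine flows again the epithelium redifferentiates, but some tubule cells keep an injured state and immune cells and scar matrix can persist. In whole tissue, fewer cells of a type and less RNA per cell cannot be told apart.

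Between week 1 and week 4, some genes of injured tubule cells (12 of 37), extracellular matrix (16 of 56) and cell division (15 of 50) fell. Some genes of proximal tubule transport (11 of 42), fatty acid oxidation (9 of 41), the circadian clock (7 of 18) and B and plasma cells (5 of 16) rose, and in each of these lists most members did not pass the test. Values were compared on the log2(FPKM + 1) scale with limma, fitted over all 24 libraries, and genes were called where the p adjusted by Benjamini-Hochberg was under 0.05. Of 14785 genes 2830 were called (19.1%), 2082 of them lower (14.1%) and 748 higher (5.06%) in R4W. Most differences were small: the median log2 fold change was -0.40 among lower calls and 0.45 among higher calls, and 114 calls reached an absolute log2 fold change of 1. The 4 R4W values lay wholly above or below the 4 R1W values for 3185 genes (21.5%), 2345 of them lower (15.9%) and 840 higher (5.68%).

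The share of lower calls depended on the scale. An FPKM is a share of its library. Each library was divided by the median of its ratios to the geometric means of genes detected in all 24 libraries. This moved the median gene from -0.05 to 0.01. The rescaled values gave 2553 calls (17.3%), 1271 lower (8.6%) and 1282 higher (8.67%). All of these lower calls, and 738 of the higher calls, had the same call on the deposited scale. The authors' deposited table holds its own comparison of R4W with R1W, with an adjusted p under 0.05 for 2593 of 14500 genes (17.9%). The calls in the authors' deposited table were 1269 higher (8.75%) and 1324 lower (9.13%), and 1773 of them shared their direction with a call on rescaled values. Among genes named by rule and described below, Lcn2, Slc34a1, Aqp2 and Egf had an adjusted p under 0.05 in the authors' deposited table (6.69e-06, 0.030, 0.0087 and 0.040) but not in limma. Mrc1 and Klrd1 were called by limma but not in the authors' deposited table (0.080 and 0.083). Scd1 was called by limma and had no adjusted p in the authors' deposited table.

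The number of genes called in R4W against R1W rested on R1W replicate 3 more than on any other library. Without that kidney it was 728 (4.92%), of which 572 were lower (3.87%) and 156 higher (1.06%). Without R4W replicate 4 it was 1603 and without R4W replicate 1 it was 1609, and without each of the other 5 libraries it lay between 2004 and 3491. With R4W replicate 2 placed in R2W 2457 genes were called. With the 8 libraries alone limma called 161 genes (1.09%), 130 lower (0.879%) and 31 higher (0.21%), and 149 of these were called in the fit on 24 libraries. In all, 692 genes were called with all libraries and without each of the 8 in turn, 544 lower and 148 higher. Of the 91 called genes in the set named by rule, 71 lost the call in the fit on 8 libraries and 10 with R4W replicate 2 placed in R2W. By list, that fit called lower 5 injured tubule, 3 matrix, 1 cell cycle and 0 interferon response genes. It called higher 2 clock and 2 podocyte genes, and 0 genes of proximal tubule transport, proximal tubule enzymes, collecting duct, fatty acid oxidation and B and plasma cells. A total of 19 named genes kept the call under each alternative scale, pseudocount, filter and set of libraries in which they were tested, and these are stated below as called in every fit. Penk, Cyp27b1, Hlf and Gpnmb are among them but had means under 10 FPKM over all 24 libraries, so the fit restricted to means of at least 10 did not test them. The rule for naming genes took its mean over the 8 libraries.

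**Figure D1:**
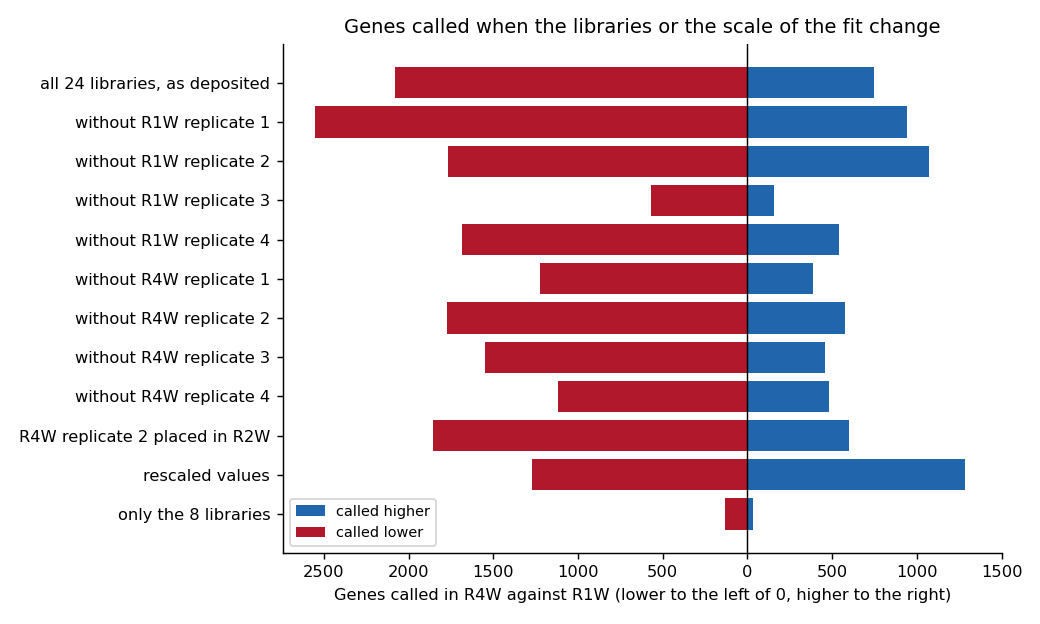
Genes called higher (blue, to the right) and lower (red, to the left) in R4W against R1W at an adjusted p under 0.05, for the fit on all 24 libraries, for fits without 1 library, and for 3 other choices. Leaving out R1W replicate 3 reduced the count from 2830 to 728, and fitting the 8 libraries alone reduced it to 161.

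Of the 37 genes of the injured tubule list 12 were called lower (32.4%, against 14.1% of all genes) and 0 higher, with a median log2 fold change of -0.38 beside -0.05 over all genes. Without R1W replicate 3 the lower calls were 6. Havcr1, which encodes the phagocytic receptor KIM-1 that injured proximal tubule cells put on their surface, was 95.7, 132, 159 and 112 FPKM in the R1W kidneys. In the R4W kidneys it was 16.8, 19.6, 24.7 and 7.79 FPKM. Every R4W kidney lay below every R1W kidney, the mean was 7.24 times lower, and the log2 fold change was -2.86 (SE 0.33, adjusted p = 7.9e-05). Sham kidneys held 1.49 to 2.35 FPKM and UUO7 kidneys 429 to 510 FPKM, so even the lowest R4W kidney was above every sham kidney.

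Krt20, a keratin of terminally differentiated epithelia that injured tubules switch on, was 17.8, 18.7, 22.1 and 17.4 FPKM at 1 week. It was 4.55, 5.10, 7.28 and 1.96 FPKM at 4 weeks, a log2 fold change of -1.89 (SE 0.21, adjusted p = 7.3e-05). R4W replicate 4 was the lowest of the R4W kidneys for both genes. Spp1, the gene of the secreted phosphoprotein osteopontin, remained the most abundant of these transcripts. It was 5822, 7648, 10156 and 6665 FPKM at 1 week and 2229, 2829, 2362 and 1882 FPKM at 4 weeks, with no overlap (log2 fold change -1.69, SE 0.22, adjusted p = 0.00038). The sham mean was 480 FPKM. These 3 genes were called in every fit, the fit on 8 libraries included, and their R2W means of 62.2, 8.01 and 4616 FPKM lay between the R1W and R4W means.

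Other members moved less. Vcam1, an adhesion molecule carried by tubule cells that fail to repair, was 70.5 to 98.7 FPKM at 1 week and 24.5 to 60.2 FPKM at 4 weeks (log2 fold change -0.98, adjusted p = 0.0091). The chaperone gene Clu fell from 1165 to 1554 FPKM to 786 to 855 FPKM (-0.74, adjusted p = 0.0053), and kept its call without each library and in the fit on 8 libraries. Itgb6, an integrin subunit that activates TGF-beta, fell by 0.68 on the log2 scale and reached levels (15.1 to 18.0 FPKM) below the sham mean of 22.5 FPKM. Lcn2, which encodes the iron-siderophore carrier NGAL, did not pass the test. Its values were 287, 474, 371 and 279 FPKM at 1 week and 193, 218, 195 and 165 FPKM at 4 weeks, without overlap, yet its log2 fold change of -0.84 had an adjusted p of 0.14 in the fit on all groups. The authors' deposited table gives Lcn2 a log2 fold change of -0.80 with an adjusted p of 6.69e-06.

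Of 18 complement genes with a row 2 were called lower (11.1%, against 14.1% of all genes), Cfi and C3, and 0 higher (against 5.06%). The lower count was 1 without R1W replicate 3 or R4W replicate 4. The higher count was 2 without R4W replicate 4 and 1 without R4W replicate 2 or with it placed in R2W. Cfi, the protease factor I that cleaves C3b, was 13.5, 20.7, 12.9 and 12.0 FPKM at 1 week and 6.56, 6.44, 6.96 and 5.98 FPKM at 4 weeks. It was called in every fit (log2 fold change -1.04, adjusted p = 0.0041). C3, the central complement component, was 137 to 195 FPKM at 1 week and 33.2 to 106 FPKM at 4 weeks (log2 fold change -1.15, adjusted p = 0.022). It lost the call without R1W replicate 3 (adjusted p = 0.072) and without R4W replicate 4 (0.084), the R4W kidney with the lowest value. The C3 mean of 80.1 FPKM at 4 weeks compares with 2.13 to 7.48 FPKM in sham.

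**Figure D2:**
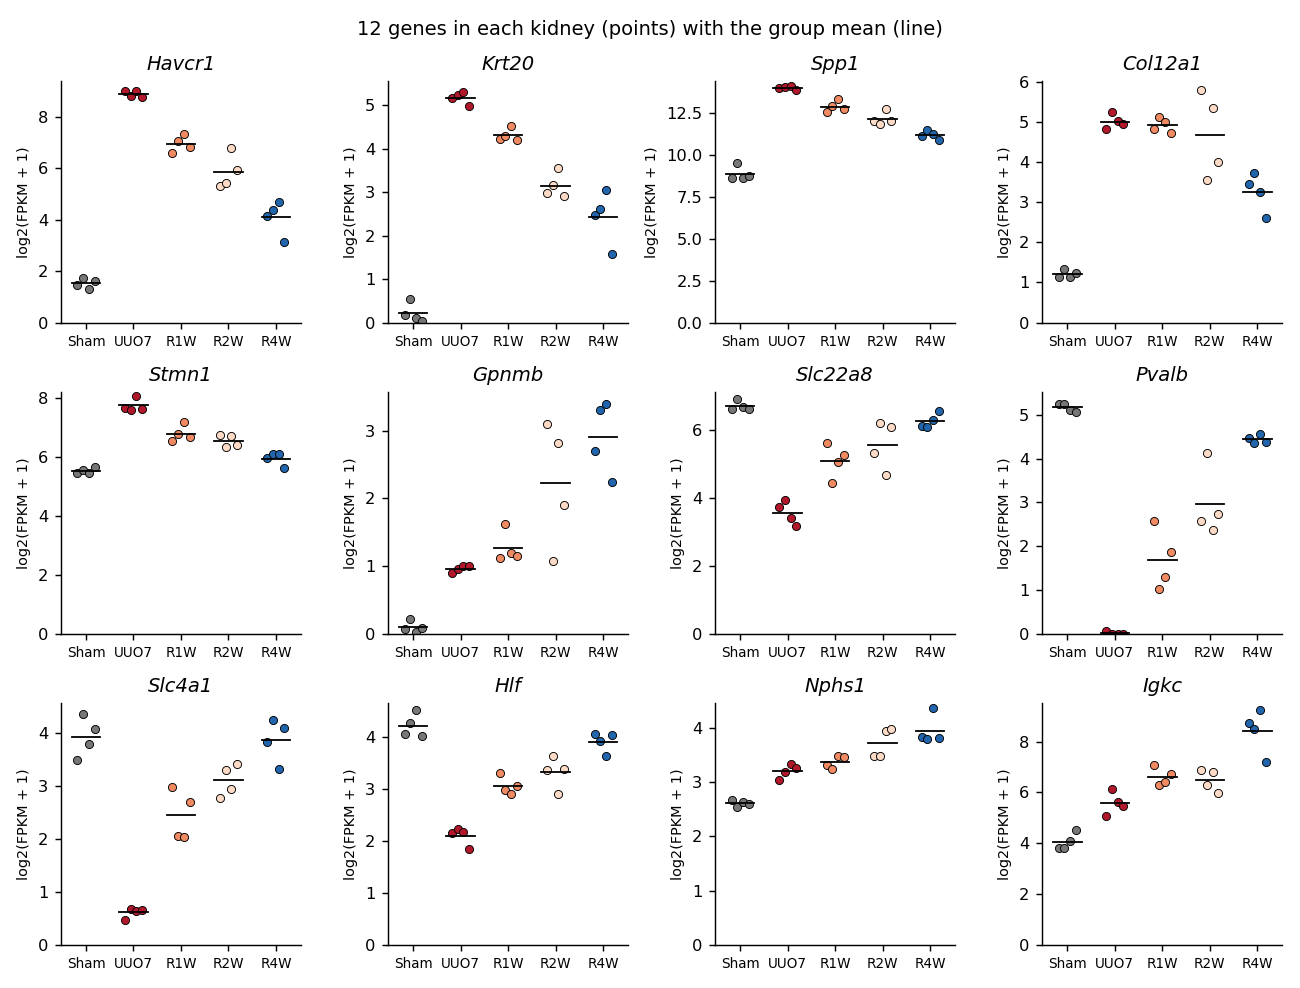
log2(FPKM + 1) of 12 genes in each of 4 kidneys (points) of the sham, UUO7, R1W, R2W and R4W groups, with the group mean as a line. Havcr1, Krt20, Spp1, Col12a1 and Stmn1 were lower in all 4 R4W kidneys than in all 4 R1W kidneys, and the other 7 genes were higher in all 4.

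The matrix and fibroblast list had 56 genes with a row, of which 16 were called lower (28.6%, against 14.1% of all genes) and 2 higher (3.57%, against 5.06%), with a median log2 fold change of -0.35. The lower calls were 7 without R1W replicate 3, R4W replicate 1 or R4W replicate 4, and 8 without R1W replicate 4. Col12a1, a collagen that binds along fibrils of type I collagen, was 27.3, 33.7, 31.01 and 25.3 FPKM at 1 week and 9.99, 12.2, 8.51 and 5.12 FPKM at 4 weeks. This fall of 1.65 on the log2 scale (SE 0.33, adjusted p = 0.0053) was called in every fit. The UUO7 mean was 31.2 FPKM and the R1W mean 29.3 FPKM, and R2W kidneys ranged from 10.8 to 54.0 FPKM.

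Col15a1, a basement membrane collagen, fell by 1.04 on the log2 scale (adjusted p = 0.0083) and Mfap2, a microfibril protein gene, by 1.20 (adjusted p = 0.0051). Both were called in every fit. Mgp, the calcification inhibitor matrix Gla protein, was 2112, 2406, 4677 and 2597 FPKM at 1 week and 1068, 1488, 1439 and 786 FPKM at 4 weeks. R1W replicate 3 was the highest, and without it the log2 fold change went from -1.27 to -1.03 and the adjusted p from 0.0089 to 0.051. Lox, which cross-links collagen, fell by 1.00 (adjusted p = 0.0078).

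Col3a1, a fibrillar collagen of interstitial scar, was 168 to 234 FPKM at 1 week and 89.7 to 145 FPKM at 4 weeks (-0.87, adjusted p = 0.030), and was no longer called without any 1 of R1W replicates 2, 3 or 4 or R4W replicates 1 or 4 (adjusted p 0.061 to 0.085). Col1a1, the main fibrillar collagen, was 46.3 to 51.8 FPKM at 1 week and 24.2 to 42.2 FPKM at 4 weeks, without overlap, a log2 fold change of -0.44 that did not pass the test (adjusted p = 0.20). Its R4W values stood above the sham mean of 2.21 FPKM. Acta2, the smooth muscle actin gene of myofibroblasts and vessel walls, had a log2 fold change of 0.02 (SE 0.34), with 47.0 to 82.3 FPKM at 1 week and 50.3 to 76.7 FPKM at 4 weeks beside 16.7 FPKM in sham.

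In the other direction, Timp3, a matrix-bound inhibitor of metalloproteinases, rose from 159 to 190 FPKM at 1 week to 227 to 282 FPKM at 4 weeks (log2 fold change 0.56, SE 0.09, adjusted p = 0.0013), in every fit. Sham kidneys held 300 to 359 FPKM and UUO7 kidneys 146 to 166 FPKM. Cnn1, a calponin of smooth muscle, was the other matrix list member called higher (0.78, adjusted p = 0.034). It was not called without R1W replicate 3 or 4 or R4W replicate 1, 3 or 4 (adjusted p 0.058 to 0.14), and each of these libraries left out alone gave 1 higher call in the list.

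Among cell cycle genes 15 of 50 with a row were called lower (30%, against 14.1% of all genes) and 1 higher (2.0%, against 5.06%). A negative log2 fold change was found for 47 of the 50, against 58.5% of all genes (median -0.34). On the rescaled values 9 were called lower (18.0%, against 8.6%), and 9 with a pseudocount of 10 or where only genes with a mean of at least 10 were tested. The lower count was 5 without R1W replicate 2, 2 without R1W replicate 3, 7 without R1W replicate 4 and 3 without R4W replicate 1 or R4W replicate 4. Stmn1, which codes for the microtubule-destabilizing protein stathmin, was called in every fit. It was 91.1, 109.5, 142 and 100.3 FPKM at 1 week and 61.2, 66.6, 67.7 and 47.8 FPKM at 4 weeks, beside a sham mean of 45.1 FPKM (log2 fold change -0.85, SE 0.17, adjusted p = 0.0051). Gmnn, the inhibitor of DNA replication licensing geminin, fell by 0.49 (adjusted p = 0.0066), and at 13.0 to 16.9 FPKM was below the sham mean of 17.2 FPKM.

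Mki67, the proliferation marker Ki-67, was 2.39 to 3.90 FPKM at 1 week and 1.29 to 2.95 FPKM at 4 weeks, with overlap (log2 fold change -0.41, adjusted p = 0.10). It was called without R4W replicate 2 (0.045) and with that kidney placed in R2W (0.039). Cdkn1a, the p53 target that encodes the arrest protein p21, did not pass the test (-0.12, SE 0.28), with 12.4 to 21.8 FPKM at 4 weeks beside 3.80 FPKM in sham. Ccnd1, the cyclin of early cell cycle entry, was the single cell cycle member called higher (0.35, adjusted p = 0.034), and was not called without R1W replicate 2, 3 or 4 or R4W replicate 1, 2 or 4 (adjusted p 0.053 to 0.097), nor with R4W replicate 2 placed in R2W (0.070).

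Promoters of late cell cycle genes are known to carry CCAAT boxes, bound by NF-Y, and cell cycle genes homology regions (CHR, TTTGAA). Of the 15 genes called lower, 10 had a promoter in the RefSeq table (GRCm38.p6, from 250 bases before to 50 after the start). In 4 of these 10 genes (Top2a, Ccnb2, Cdk1 and Ube2c) at least 1 promoter held both motifs, on either strand. Of all 32851 promoters, counted singly, 6.95% held both. Cell cycle genes not called lower were not counted, so these shares do not bear on the calls. CCAAT, with or without TTTGAA, was present in 37.4% of all promoters, and TTTGAA, with or without CCAAT, in 17.9%. The promoters of Ccnb2 (cyclin B2) and Top2a (topoisomerase II alpha) are shown from 250 bases before to 30 after the start, with TTTGAA and CCAAT, or their reverse complements TTCAAA and ATTGG, in capitals. None of the capitalized motifs overlap in these 2 sequences.
Ccnb2 (chr9:70421525-70421804, minus strand): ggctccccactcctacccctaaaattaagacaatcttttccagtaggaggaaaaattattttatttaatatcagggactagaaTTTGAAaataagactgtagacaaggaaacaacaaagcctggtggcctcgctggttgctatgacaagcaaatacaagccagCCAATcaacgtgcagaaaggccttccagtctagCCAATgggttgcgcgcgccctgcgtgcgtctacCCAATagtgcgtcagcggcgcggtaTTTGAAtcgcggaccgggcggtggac
Top2a (chr11:99024160-99024439, minus strand): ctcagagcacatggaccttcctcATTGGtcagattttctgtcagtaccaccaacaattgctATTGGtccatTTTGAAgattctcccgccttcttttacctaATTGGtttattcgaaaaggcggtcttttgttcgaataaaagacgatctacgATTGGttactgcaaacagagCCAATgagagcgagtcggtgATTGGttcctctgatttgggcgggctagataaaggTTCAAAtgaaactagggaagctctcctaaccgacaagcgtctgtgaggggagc
In Ccnb2 the 3 CCAAT boxes begin 87, 54 and 21 bases before the start, with a CHR at 5 bases after it. In Top2a a CHR begins 23 bases before the start. Ccnb2 was 4.38, 7.16, 6.21 and 5.75 FPKM at 1 week and 2.75, 4.72, 4.05 and 1.83 FPKM at 4 weeks, and only R4W replicate 2 overlapped the R1W range (log2 fold change -0.70, adjusted p = 0.027). Top2a was 8.42 to 12.7 FPKM at 1 week and 3.35 to 8.01 FPKM at 4 weeks (-0.69, adjusted p = 0.045, and 0.054 on rescaled values). Without R1W replicate 2 or 3 or R4W replicate 1 or 4 neither was called (adjusted p 0.062 to 0.10 for Ccnb2 and 0.082 to 0.17 for Top2a).

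Of 42 proximal tubule transport genes 11 were called higher (26.2%, against 5.06% of all genes) and 0 lower, 38 had a positive log2 fold change, and the median was 0.36. The count was 5 without R1W replicate 2, 2 without R1W replicate 3, 6 without R4W replicate 3 and 3 without R4W replicate 4. Slc22a8, the basolateral organic anion transporter OAT3, was 48.4, 21.0, 32.2 and 37.5 FPKM at 1 week and 69.0, 67.7, 78.2 and 94.3 FPKM at 4 weeks. All R4W kidneys were above all R1W kidneys (log2 fold change 1.18, SE 0.27, adjusted p = 0.0084) and below the lowest sham kidney at 98.2 FPKM. Slc34a3, a sodium-phosphate cotransporter, rose by 0.69 on the log2 scale (adjusted p = 0.013), to 11.1 to 13.2 FPKM beside 26.0 FPKM in sham.

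Aqp1, the water channel of proximal tubule and thin descending limb, was 255, 206, 122 and 205 FPKM at 1 week and 367, 340, 273 and 389 FPKM at 4 weeks (log2 fold change 0.83, adjusted p = 0.014). R1W replicate 3 was lowest, and without it the adjusted p was 0.078. Lrp2, the endocytic receptor megalin, was called (0.62, adjusted p = 0.042) with overlap between 27.1 to 44.6 FPKM and 43.8 to 63.6 FPKM. It lost the call without any 1 of 6 of the 8 libraries, at an adjusted p of up to 0.16 without R1W replicate 3, and at 0.057 with R4W replicate 2 placed in R2W. Slc34a1 did not pass the test (0.55, adjusted p = 0.068), though it did with that placement (0.043), without R1W replicate 1 (0.037) and without R4W replicate 2 (0.050). Slc7a13, an amino acid transporter of the straight proximal tubule, did not pass it either (0.46, SE 0.27, adjusted p = 0.23).

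Proximal tubule enzyme and identity genes had a median of 0.28, with 3 of 40 called higher (7.5%, against 5.06% of all genes) and 1 lower (2.5%, against 14.1%). The higher count was 7 without R1W replicate 1, 5 without R4W replicate 2 (6 with it in R2W), 1 without R1W replicate 2 or R4W replicate 4 and 0 without R1W replicate 3, and the lower count was 2 without R1W replicate 2 or R4W replicate 4. Cyp27b1, the kidney enzyme that makes active vitamin D, was the lower one and was called in every fit. It was 6.16, 5.45, 6.00 and 4.24 FPKM at 1 week and 1.64, 3.35, 1.55 and 1.30 FPKM at 4 weeks, beside 0.89 FPKM in sham and 11.8 FPKM in UUO7 (log2 fold change -1.16, SE 0.20, adjusted p = 0.0029). Cyp4b1, an oxidase of the cytochrome P450 family, rose by 0.98 (adjusted p = 0.016; 0.064 without R1W replicate 3). Ass1, which makes argininosuccinate on the way to arginine, rose by 0.85 (adjusted p = 0.020; 0.072 without R1W replicate 3, 0.056 without R1W replicate 2 and 0.061 without R4W replicate 4).

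Of the genes named for their size, the distal convoluted tubule gene Pvalb, which encodes the calcium buffer parvalbumin, had the largest rise. It was 4.98, 1.04, 1.45 and 2.65 FPKM at 1 week and 21.3, 19.6, 22.8 and 19.8 FPKM at 4 weeks. The R4W kidneys lay close together and 8.25 times above the R1W mean (log2 fold change 2.76, SE 0.29, adjusted p = 7.3e-05), and the call held in every fit. UUO7 kidneys held 0 to 0.04 FPKM and sham kidneys 32.3 to 37.3 FPKM. Pvalb is also a gene of fast skeletal muscle. Of 10 muscle list genes 2 had a row, and the other, the troponin gene Tnni2, was not called (-0.10, adjusted p = 0.81). The part of muscle in the Pvalb rise was not tested.

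Of 28 thick ascending limb and distal tubule genes with a row 3 were called higher (10.7%, against 5.06% of all genes) and 1 lower (3.57%, against 14.1%), and 4 and 0 on rescaled values (14.3%, against 8.67%, and 0). The higher count was 8 in the fit without the 4 kidneys ligated for 2 days (UUO2), 1 in the fit on 8 libraries, 5 with a pseudocount of 10, 5 without R1W replicate 1 and 1 without R1W replicate 3 or R4W replicate 4, and the lower count was 0 without R1W replicate 3, R4W replicate 1 or R4W replicate 3. Kl, which encodes the FGF23 co-receptor klotho, was 46.3 to 68.6 FPKM at 1 week and 81.3 to 104 FPKM at 4 weeks, beside 124 FPKM in sham (0.63, adjusted p = 0.022). The adjusted p was 0.055, 0.088 and 0.073 without R1W replicate 2, R1W replicate 3 or R4W replicate 4. Egf, a distal tubule growth factor gene, was 174, 67.3, 87.5 and 146 FPKM at 1 week and 216, 177, 216 and 299 FPKM at 4 weeks, without overlap, and did not pass the test (1.00, SE 0.40, adjusted p = 0.078). It was called without R1W replicate 1 (0.041). Umod had a log2 fold change of -0.01 (SE 0.16), and 0.07 after rescaling.

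In the collecting duct 4 of 24 genes were called higher (16.7%, against 5.06% of all genes) and 0 lower, with a median of 0.45. On rescaled values 6 were called higher (25.0%, against 8.67%). The count was 7 without UUO2, 7 with a pseudocount of 10, 7 without R1W replicate 1, 1 without R1W replicate 3 and 2 without R4W replicate 1 or 4. Foxi1, the transcription factor of intercalated cells, rose from 15.2 to 18.3 FPKM to 19.3 to 31.2 FPKM (0.64, SE 0.12, adjusted p = 0.0041), beside a sham mean of 17.0 FPKM. Slc4a1, the chloride-bicarbonate exchanger of acid-secreting intercalated cells and of red cells, was 6.89, 3.15, 3.07 and 5.49 FPKM at 1 week and 13.1, 17.9, 8.98 and 16.0 FPKM at 4 weeks (1.43, adjusted p = 0.012; 0.057 without R1W replicate 3). The 6 red blood cell genes with a row had a median of -0.15, with summed levels of 393 to 734 FPKM in R1W and 381 to 610 FPKM in R4W. The summed level of the collecting duct list was 948 to 1256 FPKM in R1W and 1934, 1245, 1485 and 1582 FPKM in R4W, and that of the urothelium list was 27.0 to 143 FPKM and 316, 91.6, 229 and 172 FPKM. R4W replicate 1 was the highest and R4W replicate 2 the lowest R4W kidney in both. Sham replicate 2 also stood apart in both, at 1553 FPKM against 958 to 1080 FPKM in the other shams for the collecting duct and 105 against 2.06 to 6.27 FPKM for the urothelium, and the part of urothelium in the collecting duct values was not tested. Aqp3, a basolateral water channel of principal cells, rose by 0.93 (adjusted p = 0.023), and lost the call without R1W replicate 3 (0.097), R4W replicate 1 (0.069) or R4W replicate 4 (0.061). Aqp2, the vasopressin-regulated water channel, was 142 to 280 FPKM at 1 week and 237 to 673 FPKM at 4 weeks, with overlap (0.85, SE 0.40, adjusted p = 0.13).

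**Figure D3:**
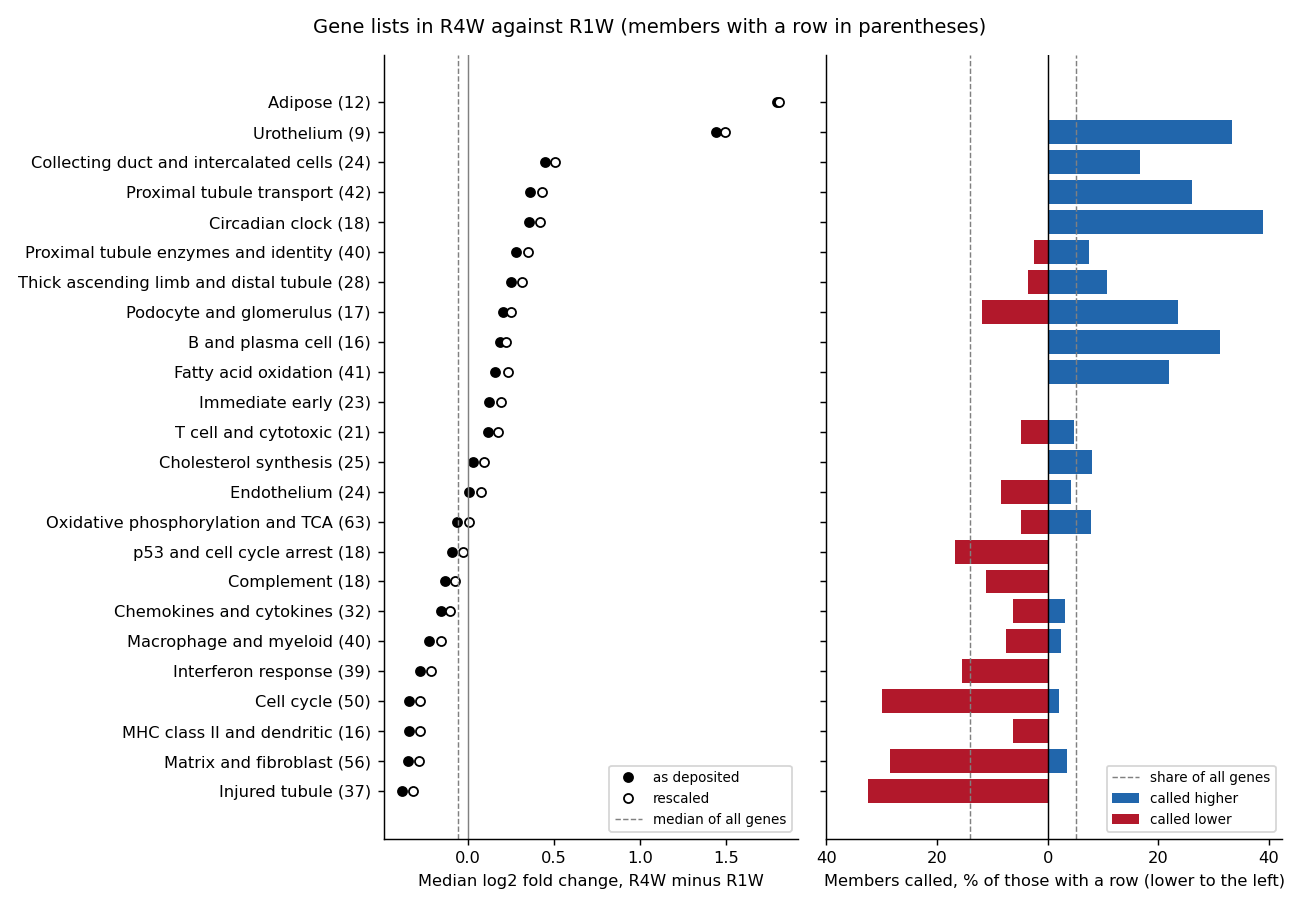
Left, median log2 fold change of each gene list with at least 9 genes in the table, on deposited (filled) and rescaled (open) values, with the median of all genes dashed. Right, the share of each list called higher (blue) or lower (red), with the shares of all genes (5.06% and 14.1%) dashed. Injured tubule, matrix and cell cycle lists had the most lower calls, and the adipose list had the highest median, 1.79, with 0 calls.

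Some podocyte genes rose. Nphs1, which encodes the slit diaphragm protein nephrin, was 8.97, 8.50, 10.2 and 10.1 FPKM at 1 week and 13.3, 12.9, 19.6 and 13.0 FPKM at 4 weeks, beside 4.84 to 5.40 FPKM in sham. All R4W kidneys were above all R1W kidneys (log2 fold change 0.57, SE 0.16, adjusted p = 0.017), and without R4W replicate 3, the highest, the adjusted p was 0.060. Of the 17 podocyte and glomerulus genes 4 were called higher (23.5%, against 5.06% of all genes) and 2 lower (11.8%, against 14.1%). The higher count was 1 without R1W replicate 3 and 2 without R4W replicate 3, and the lower count was 1 without R1W replicate 3 or 4 or R4W replicate 1. The lower ones were Tcf21, a transcription factor of podocytes and of interstitial fibroblasts, and the renin gene Ren1.

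Tcf21 was 72.9, 71.9, 91.2 and 86.4 FPKM at 1 week and 47.7, 53.4, 51.8 and 42.4 FPKM at 4 weeks, without overlap, beside 7.37 to 12.3 FPKM in sham (log2 fold change -0.71, SE 0.17, adjusted p = 0.0089), and was called in every fit. Ren1 fell by 0.95 (adjusted p = 0.020), from 37.3 to 60.1 FPKM to 16.1 to 30.9 FPKM, beside 31.4 FPKM in sham. It lost the call without R1W replicate 3 (0.061), R1W replicate 4 or R4W replicate 1 (0.073).

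Of 41 fatty acid oxidation genes 9 were called higher (22.0%, against 5.06% of all genes) and 0 lower, with a median of 0.16 beside -0.05 over all genes. The count was 0 without R1W replicate 3, 3 without R1W replicate 2 and 2 without R4W replicate 1 or R4W replicate 4. R4W replicate 1 also had the highest summed level of adipose genes, 2312 FPKM against 82.0 to 551 FPKM in the other R4W kidneys, and the part of that signal in the list's calls was not tested beyond the fit without it. In the same kidney Acsl1, which activates long-chain fatty acids, was 73.2 FPKM against 32.9 to 37.7 FPKM in the other R4W kidneys and 22.1 to 30.9 FPKM in R1W (0.74, adjusted p = 0.018), and it was not called without that kidney (0.062) or without R1W replicate 3 (0.074). Acads, the short-chain acyl-CoA dehydrogenase, was 77.0, 51.1, 44.9 and 73.9 FPKM at 1 week and 94.9, 83.6, 87.2 and 90.3 FPKM at 4 weeks (0.56, adjusted p = 0.010; 0.057 without R1W replicate 3). Cpt1a, which admits long-chain fatty acids to mitochondria, rose by 0.40 (adjusted p = 0.025), with an adjusted p of 0.11 without R1W replicate 3, 0.057 without R1W replicate 2, 0.053 without R4W replicate 2, 0.062 with that kidney placed in R2W and 0.081 without R4W replicate 4. Of 63 oxidative phosphorylation and TCA cycle genes, rescaled values gave 4 higher (6.35%, against 8.67% of all genes) and 0 lower (against 8.6%). The share of higher calls was below that of all genes on that scale and above it on deposited values. On deposited values 5 were called higher (7.94%, against 5.06% of all genes) and 3 lower (4.76%, against 14.1%). Single libraries moved these counts: without R1W replicate 2 they were 1 higher and 18 lower, without R1W replicate 1 they were 8 higher and 2 lower, without R1W replicate 3 they were 1 and 0, without R1W replicate 4 they were 5 and 1, without R4W replicate 3 they were 4 and 1, without R4W replicate 2 they were 2 and 2, with that kidney placed in R2W they were 3 and 2, and without R4W replicate 1 or 4 they were 1 and 2. Ogdh, the oxoglutarate dehydrogenase of the TCA cycle, rose by 0.49 (adjusted p = 0.0081), and Pcx, the pyruvate carboxylase that feeds gluconeogenesis, by 1.19 (adjusted p = 0.0047).

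The clock list had the greatest share of higher calls among lists of more than 9 genes, 7 of 18 (38.9%, against 5.06% of all genes), with a median of 0.35. The count was 2 where only genes with a mean of at least 10 were tested, 2 in the fit on 8 libraries, 2 without R1W replicate 3, 3 without R1W replicate 4 or R4W replicate 1 and 4 without R4W replicate 2 or 3 and with R4W replicate 2 in R2W. Nr1d1, the repressor REV-ERB alpha, was 31.9, 32.2, 29.8 and 30.5 FPKM at 1 week and 57.9, 43.3, 55.1 and 45.3 FPKM at 4 weeks (log2 fold change 0.67, SE 0.15, adjusted p = 0.0077). Hlf, a PAR-domain transcription factor driven by the clock, was 8.95, 6.94, 6.52 and 7.37 FPKM at 1 week and 15.7, 14.2, 11.4 and 15.4 FPKM at 4 weeks (0.84, adjusted p = 0.0074). Both were called in every fit, and neither overlapped between the groups. Ciart, a clock repressor, rose by 0.87 (adjusted p = 0.0089), and without R1W replicate 3 it was not called. Bhlhe41, the repressor DEC2, rose by 0.55 (adjusted p = 0.027) and was not called without R1W replicate 1, 3 or 4 or R4W replicate 1 or 2 (0.058 to 0.079), nor with R4W replicate 2 in R2W (0.083).

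Genes of the positive limb, which peak in antiphase to these, had negative differences that did not pass the test. Arntl, the gene of BMAL1, was 2.15 to 4.04 FPKM at 1 week and 1.40 to 2.33 FPKM at 4 weeks (-0.49, adjusted p = 0.087), and Npas2 was 0.92 to 1.84 FPKM and 0.71 to 0.92 FPKM (-0.41, adjusted p = 0.074). Without R1W replicate 1 both were called (0.034 and 0.030). The hour at which animals were culled is not given in the sources used here, and its part in these differences was not tested. The E-box CACGTG is bound by BMAL1 and CLOCK. It was present in at least 1 promoter of 3 (Tef, Ciart and Bhlhe41) of the 6 called clock genes in the RefSeq set (GRCm38.p6). Of all 32851 promoters, counted singly, 7.15% held it. Clock genes not called were not counted, so these shares do not bear on the calls. The motif reads the same on both strands. Promoters of Ciart and Bhlhe41 are shown from 250 bases before to 30 after the start, with CACGTG in capitals.
Ciart (chr3:95882199-95882478, minus strand): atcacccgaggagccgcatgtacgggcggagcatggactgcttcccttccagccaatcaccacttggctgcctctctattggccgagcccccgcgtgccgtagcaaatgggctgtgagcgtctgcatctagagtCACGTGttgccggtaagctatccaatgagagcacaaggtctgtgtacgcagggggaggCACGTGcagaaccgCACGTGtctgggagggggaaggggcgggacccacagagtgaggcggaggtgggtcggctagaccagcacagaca
Bhlhe41 (chr6:145865391-145865670, minus strand): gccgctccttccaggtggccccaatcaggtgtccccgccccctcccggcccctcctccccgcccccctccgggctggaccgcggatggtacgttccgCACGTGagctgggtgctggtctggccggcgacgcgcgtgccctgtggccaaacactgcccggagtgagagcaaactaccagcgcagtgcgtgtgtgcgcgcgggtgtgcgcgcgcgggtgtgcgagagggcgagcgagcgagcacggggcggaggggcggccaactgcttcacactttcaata
Ciart has 3 copies, which begin 116, 58 and 44 bases before its start, and Bhlhe41 has 1, which begins 153 bases before. Ciart was 6.29, 4.71, 2.62 and 4.47 FPKM at 1 week and 9.36, 8.22, 9.21 and 8.53 FPKM at 4 weeks, with all R4W kidneys higher.

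In the B and plasma cell list 5 of 16 genes with a row were called higher (31.2%, against 5.06% of all genes) and 0 lower on both scales. The count was 4 to 6 without any 1 of the 8 libraries, 2 where only genes with a mean of at least 10 were tested and 0 in the fit on 8 libraries. The list's median log2 fold change was 0.19 beside -0.05 over all genes, and 4 of the 16 had a negative difference. Igkc, the constant region of the kappa light chain, was 134, 77.0, 84.1 and 104 FPKM at 1 week and 429, 359, 604 and 146 FPKM at 4 weeks. Igha, the heavy chain of IgA, was 38.1, 34.2, 62.9 and 55.0 FPKM at 1 week and 112, 196, 361 and 88.8 FPKM at 4 weeks. R4W replicate 3 was highest and R4W replicate 4 lowest for both, and neither overlapped R1W (log2 fold change 1.80 and adjusted p = 0.0041 for each). Jchain, which joins the subunits of secreted IgA and IgM, rose by 1.31 (adjusted p = 0.0066).

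Igkc and Igha moved further from sham. Their sham means were 16.1 and 10.3 FPKM and their UUO7 means 48.6 and 33.4 FPKM, and their R2W means of 92.6 and 68.0 FPKM stood beside R1W means of 99.8 and 47.6 FPKM. Of genes averaging 10 FPKM or more in the 8 libraries and with ordinary gene names, 4 were called higher both in UUO7 over sham and in R4W over R1W on both scales, with no overlap of R1W and R4W: Igkc, Igha, Cbr2 (a carbonyl reductase) and Rgs5 (a regulator of G protein signalling in pericytes). Rgs5 rose by 0.38 (adjusted p = 0.042), and was not called without R1W replicate 3 or 4 or R4W replicate 1, 2 or 3 (0.074 to 0.15) or with R4W replicate 2 in R2W (0.096). Immunoglobulin constant regions are near copies of each other, so values of single classes are uncertain. The list sum was 192 to 368 FPKM in R1W and 305 to 1183 FPKM in R4W, and R4W replicate 4 overlapped R1W.

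Macrophage and myeloid genes had 1 of 40 called higher (2.5%, against 5.06% of all genes) and 3 lower (7.5%, against 14.1%), with a median of -0.22. On rescaled values 3 were called higher (7.5%, against 8.67%) and 2 lower (5.0%, against 8.6%). On deposited values the lower count was 1 without R1W replicate 2 and 0 without R1W replicate 3, R4W replicate 1 or R4W replicate 4. The higher count there was 2 without R1W replicate 2 or 4 or R4W replicate 4. The gene called higher was Gpnmb, a lysosomal glycoprotein of lipid-laden and scar-associated macrophages. It was 1.18, 2.08, 1.29 and 1.21 FPKM at 1 week and 5.51, 8.83, 9.55 and 3.73 FPKM at 4 weeks, above every R1W kidney (log2 fold change 1.64, SE 0.30, adjusted p = 0.0039), and was called in every fit. Sham kidneys held 0.02 to 0.16 FPKM, UUO7 kidneys 0.86 to 0.99 FPKM and R2W kidneys 1.11 to 7.53 FPKM. Mrc1, the mannose receptor CD206, fell by 0.90 (adjusted p = 0.022), with overlap, and was not called without R1W replicate 3 (0.12), R4W replicate 1 (0.062) or R4W replicate 4 (0.075).

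Neither Adgre1 nor Lyz2 passed the test. Adgre1, which encodes the F4/80 antigen, was 14.0 to 19.6 FPKM at 1 week and 9.65 to 16.3 FPKM at 4 weeks (-0.33, adjusted p = 0.38), beside 0.56 to 0.94 FPKM in sham. Lyz2, the myeloid lysozyme, was 473 to 737 FPKM and 392 to 767 FPKM (0.02, SE 0.31), beside 16.0 FPKM in sham. Of 39 interferon response genes 6 were called lower (15.4%, near the 14.1% of all genes) and 0 higher, and 37 had a negative difference (median -0.28, beside -0.05 over all genes). The count was 12 without UUO2, 13 with a pseudocount of 10, 0 in the fit on 8 libraries, 14 without R1W replicate 1, 3 without R1W replicate 4 or R4W replicate 1 and 2 without R1W replicate 3 or R4W replicate 4. On rescaled values it was 6 (15.4%, against 8.6% of all genes). Irgm1, an interferon-induced GTPase, was 36.2, 53.2, 47.6 and 55.6 FPKM at 1 week and 30.8, 32.7, 31.3 and 27.7 FPKM at 4 weeks (-0.62, adjusted p = 0.0071). Of 21 T cell and cytotoxic genes with a row 1 was called higher (4.76%, against 5.06% of all genes) and 1 lower (4.76%, against 14.1%), and 6 had a negative difference. The lower gene, Klrd1, which encodes the natural killer cell receptor CD94, was 3.22 to 5.34 FPKM at 1 week and 2.31 to 3.56 FPKM at 4 weeks (-0.47, adjusted p = 0.028). It was not called on rescaled values or without R1W replicate 2, 3 or 4 or R4W replicate 1 or 4 (adjusted p up to 0.094). The higher gene, Cd3e, a chain of the T cell receptor complex, was called (0.55, adjusted p = 0.024), but not without R1W replicate 4 or R4W replicate 1, 2 or 3 (0.052 to 0.078), nor with R4W replicate 2 placed in R2W (0.13).

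Direction during obstruction was read from UUO7 against sham, which shares no library with R4W against R1W. Both came from the same fit and share its spread per gene, so their calls are not independent. In UUO7 against sham 77.9% of all genes were called, 60.1% higher and 17.8% lower. Of the 2082 genes lower in R4W than in R1W, 1924 (92.4%) had been called higher in UUO7 and 14 lower. Of the 748 genes higher in R4W, 473 (63.2%) had been called lower in UUO7 and 77 higher. On rescaled values, where 73.0% of all genes were called in UUO7, 36.5% higher and 36.5% lower, these shares were 78.4% and 76.1%. Without R1W replicate 2 the share for higher calls was 44.4%, and without R4W replicate 4 it was 45.1%.

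**Figure D4:**
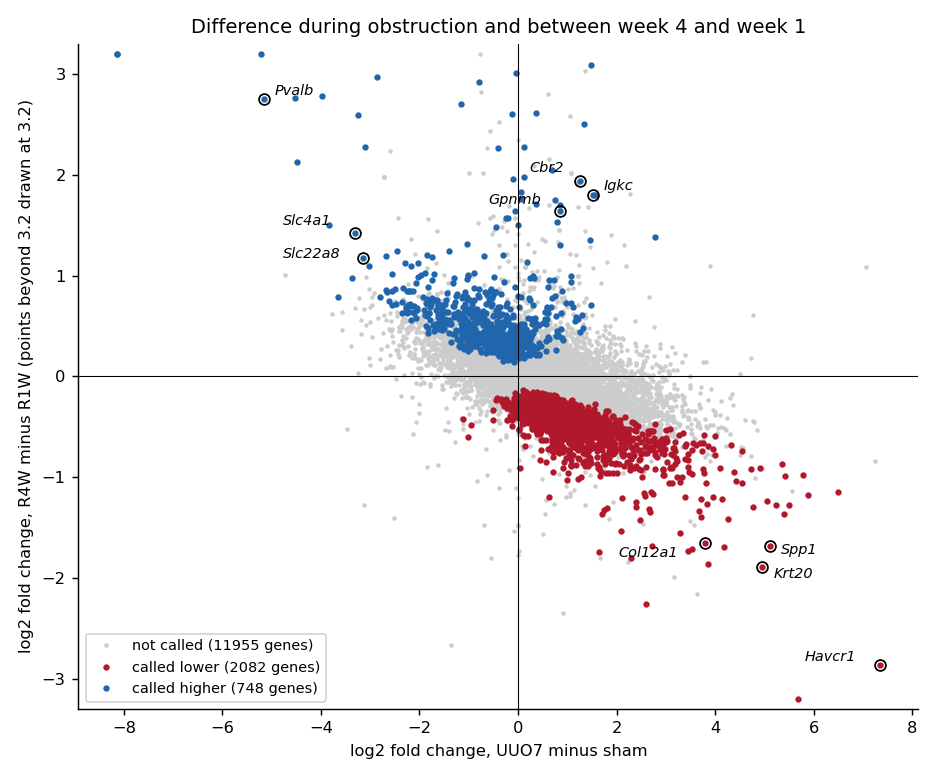
Each point is a gene, with its log2 fold change in UUO7 against sham on the horizontal axis and in R4W against R1W on the vertical axis, and genes called in R4W against R1W coloured. Lower calls lie mostly to the right, where genes were higher in UUO7, and Igkc, Cbr2 and Gpnmb lie at the upper right.

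Genes of other tissues varied between single kidneys, sham kidneys included. Of 14 adipose genes 12 had a row, and their summed level was 107 to 180 FPKM in R1W and 2312, 82.0, 551 and 107 FPKM in R4W. Adipoq, the adipocyte hormone adiponectin, was listed at 0 in all R1W kidneys and was 79.7, 0.17, 25.6 and 0 FPKM in R4W, so R4W replicates 1 and 3 stood apart. Adipoq was not called (adjusted p = 0.052), and was called with R4W replicate 2 placed in R2W (0.017). Among sham kidneys, sham replicate 2 had a summed adipose level of 417 FPKM against 97.0 to 102 FPKM in the other 3, and it also had the highest urothelium level, so sham means of genes of these tissues rest in part on that kidney. The adipose list's median was 1.79 (0.77 without R4W replicate 1) and 0 members were called, but 9 were called without R4W replicate 2 or with it in R2W, and 8 without R4W replicate 4. Of 12 urothelium genes 9 had a row and 3 were called higher (33.3%, against 5.06% of all genes). The urothelium count was 6 without R1W replicate 2 or R4W replicate 2 and with the latter in R2W. With a pseudocount of 10 the urothelium count was 6, with 0.1 it was 1, on rescaled values it was 5, and on the 8 libraries alone it was 0. Upk1a, a uroplakin of the urothelial surface, was 7.78, 9.31, 4.20 and 3.04 FPKM at 1 week and 34.9, 12.4, 22.1 and 21.2 FPKM at 4 weeks (1.76, adjusted p = 0.0095).

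Several of the largest rises were highest in R4W replicate 1, the kidney with the most adipose signal. Scd1, the stearoyl-CoA desaturase of lipid synthesis, was 24.4, 14.2, 12.8 and 23.0 FPKM at 1 week and 722, 28.6, 79.7 and 38.2 FPKM at 4 weeks. Without R4W replicate 1 its log2 fold change went from 2.26 to 1.26 and its adjusted p from 0.029 to 0.088, and it was not called without R1W replicate 2 (0.053) or R1W replicate 3 (0.10). Dgat2, which makes triglycerides, was 38.6, 24.2, 18.7 and 32.7 FPKM at 1 week and 116, 49.1, 55.3 and 56.2 FPKM at 4 weeks, and without R4W replicate 1 its log2 fold change was 0.93 (adjusted p = 0.016) in place of 1.21. Cbr2 was 5.77, 9.83, 6.39 and 4.84 FPKM at 1 week and 46.7, 15.5, 37.2 and 22.0 FPKM at 4 weeks, called in every fit (1.94, SE 0.33, adjusted p = 0.0025). The part of adipose and urothelial tissue in these rises was not tested beyond the fits without 1 library.

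Immediate early genes, transcription factors and phosphatases that respond within minutes to stimuli, had 0 of 23 called by limma in either direction (against 5.06% of all genes higher and 14.1% lower). The higher count was 1 on rescaled values, 1 without R4W replicate 3 and 2 without R4W replicate 4. The summed level of the list was 893 and 1007 FPKM in R4W replicates 1 and 2, 565 and 376 FPKM in R4W replicates 3 and 4 and 510 to 732 FPKM in R1W. Fos was 27.5 and 44.5 FPKM in R4W replicates 1 and 2, against 4.98 and 2.98 FPKM in R4W replicates 3 and 4 and 3.89 to 11.4 FPKM in R1W. Nr4a1 was 21.8 and 46.1 FPKM in those 2 kidneys and 2.60 to 5.73 FPKM in the other 6. Both genes were chosen for this after their values were seen.

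**Figure D5:**
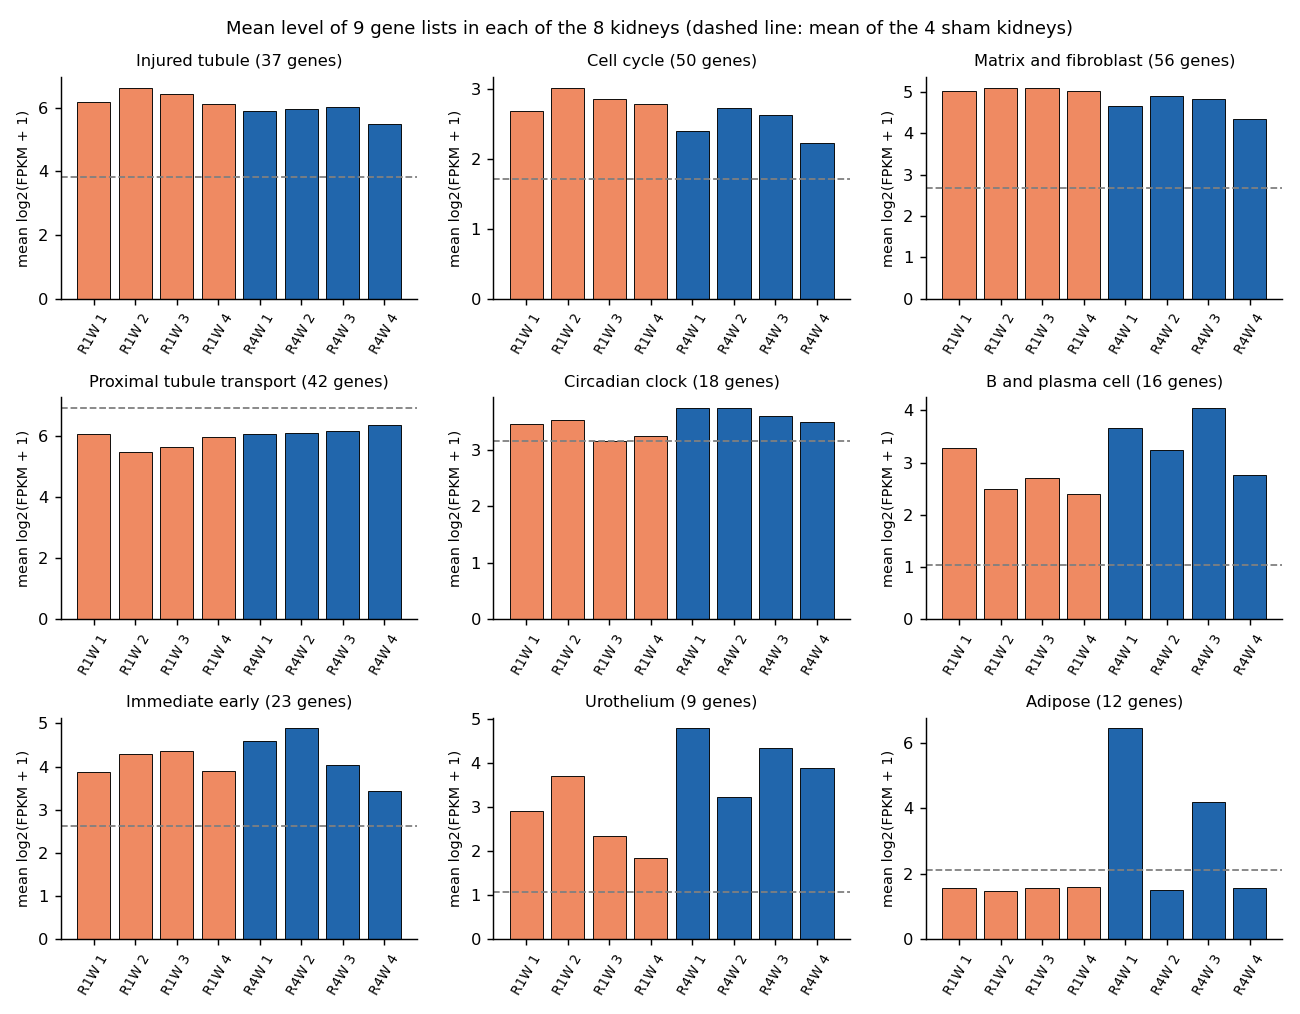
Mean log2(FPKM + 1) of 9 gene lists in each R1W (orange) and R4W (blue) kidney, with the mean of the 4 sham kidneys dashed. Injured tubule and matrix lists were lower in every R4W kidney than in any R1W kidney, whereas the adipose list was high in R4W replicates 1 and 3 only.

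Further genes with the largest falls, outside the lists, were Penk (the enkephalin precursor), Aoc1 (an amine oxidase of the kidney), Serpina10 (a protease inhibitor), Gc (the vitamin D binding protein) and Ubd (a ubiquitin-like modifier induced by cytokines). Aoc1 was 76.1, 107, 103 and 76.3 FPKM at 1 week and 29.7, 50.6, 37.7 and 23.7 FPKM at 4 weeks, beside 3.02 FPKM in sham (-1.36, adjusted p = 0.0053). Penk fell by 1.55 and Serpina10 by 1.28, and these and Aoc1 were called in every fit. Ubd fell by 1.29 and Gc by 1.27. Among rises outside the lists, Ugt1a7c, a glucuronosyltransferase, rose by 1.13 (0.0099; 0.055 without R1W replicate 3), and Tspan1, an epithelial tetraspanin, by 1.24 (0.013; 0.068 without R1W replicate 3).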

How the data were processed

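RNA of whole kidneys was sequenced in 24 mice, 4 in each of 6 groups, after polyA selection per the labels' protocols. The authors deposited 1 table with a value for each of 14785 genes in each library. Per the file headers no unit is named, and FPKM was inferred here from the deposited values: columns summed to 717415 to 830179, a ratio of 1.16 that fell to 1.08 after weighting by transcript length. The submitters' processing notes name FastQC, RSEM, Bowtie2, DESeq2 and the mm10 build, without versions or order. The smallest gene mean in the table is 1, so genes of lower expression are not analysed here. The authors deposited log2 fold changes and adjusted p-values of their own comparisons in the same table, used only where named.

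Groups follow the sample titles. All 24 libraries entered a two-sided test on log2(FPKM + 1) with 1 coefficient per group, in limma 3.58.1 under R 4.3.3 with a mean-variance trend, and p-values were adjusted by the Benjamini-Hochberg method over all genes. Fold changes on this scale understate the change of low genes. SE is limma's moderated standard error. It and the p-values rest on a spread per gene pooled over the animals of all 6 groups. The median gene's SD was 0.181 in R1W, the largest, and 0.114 in sham, the smallest. The fit on 8 libraries used the spread of R1W and R4W alone. Read counts were not used here. Implied depths came from whole-read steps (Python 3.11.15, numpy 2.4.6), and no steps were found for UUO2. In simulated data with 14785 genes, limma called 97 of 100 genes changed by a log2 fold change of 1 and 99 of 100 changed by 2, with 10 unchanged genes called. The simulation gave each gene 1 normal spread shared by all groups, with no outlying library. Its planted changes were larger than the median call here. It therefore does not measure power or false calls in the real libraries. Other settings tried were a pseudocount of 0.1 or 10, means of 10 or more, stricter calls, the 8 libraries alone, a fit without UUO2, a replicate block, robust estimation, R4W replicate 2 moved to R2W, the removal of each library and, added after the data were seen, 3 of these on rescaled values.

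Genes were named by a rule: the 12 largest differences in each direction among calls averaging 10 FPKM or more without overlap, up to 4 called members of each of 28 gene lists, and a set of standard markers. Clu, Col3a1, Cnn1, Ccnd1, Ccnb2, Top2a, Ren1, Arntl, Npas2, Rgs5, Tnni2, Adipoq, Fos and Nr4a1 were described outside this rule. Some genes named by the rule are not described. Of 806 listed genes 720 had a row. The comparison, the rule and the lists were chosen with earlier results of these data known. Promoters are from RefSeq.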

Additional observations from a re-analysis of the deposited data

Results flagged for a closer look

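Of 214 checks of 4 libraries, 14 found a library far from the other 3 of its group, while chance gives about 1 in 20, or 10.7. In R4W replicate 4, Cdkn1a was low at 12.42 FPKM against 20.8 to 21.8 FPKM, Slc7a13 was high at 227.9 FPKM against 163 to 170.6 FPKM, and Kl was high at 103.8 FPKM against 81.3 to 83.2 FPKM. The same library had the highest column sum, 739088, against 724814 to 726944, and the lowest median gene, 10.7 FPKM against 11.5 to 11.6 FPKM. In R4W replicate 1, Scd1 was high at 722.42 FPKM against 28.6 to 79.7 FPKM, Dgat2 at 115.71 FPKM against 49.1 to 56.2 FPKM, Acsl1 at 73.15 FPKM against 32.9 to 37.7 FPKM and Cry2 at 9.1 FPKM against 8.01 to 8.12 FPKM.

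Cyp27b1 was high in R4W replicate 2 at 3.35 FPKM against 1.30 to 1.64 FPKM, and Nphs1 in R4W replicate 3 at 19.64 FPKM against 12.9 to 13.3 FPKM. In R1W replicate 2, Gpnmb was high at 2.08 FPKM against 1.18 to 1.29 FPKM, the mean log2(FPKM + 1) of the adipose list was low at 1.46865 against 1.57 to 1.58, and the median gene was high at 12.51 FPKM against 11.2 FPKM in the others.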

How the results depend on the processing

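The number of genes called in R4W against R1W, 2830 over all libraries, ranged from 728 (without R1W replicate 3) to 3491 (without R1W replicate 1) when each library was left out, with 156 to 1069 calls for R4W against R1W, higher, and 572 to 2550 for R4W against R1W, lower. The 8 libraries alone gave 161 calls, 31 higher and 130 lower, by limma, while 4529 genes had an unadjusted p under 0.05 there and 5234 over all libraries. An adjusted p under 0.01 left 697 calls (156 higher, 541 lower), and a log2 fold change of 1 or more in size left 114 (62 higher, 52 lower). Rescaled values gave 1282 higher and 1271 lower calls, the authors' deposited table gave 1269 and 1324, and a mean of at least 10 gave 492 higher calls. For R4W against R1W, rescaled, the 8 libraries alone gave 115 calls (37 higher, 78 lower). Leaving out 1 library there gave 470 to 3234 calls, with 236 to 1673 for R4W against R1W, rescaled, higher, and 234 to 1561 for R4W against R1W, rescaled, lower. In that series the counts were 470 (236 and 234) without R1W replicate 3, 1347 (659 and 688) without R4W replicate 1 and 1511 (805 and 706) without R4W replicate 4, and 847 were higher without R4W replicate 3.

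For UUO7 against sham, direction of R4W against R1W calls: lower calls that were higher in UUO7 against sham, percent, the value was 78.4 on rescaled values and 86.4 to 94.6 without 1 library. For UUO7 against sham, direction of R4W against R1W calls: higher calls that were lower in UUO7 against sham, percent, it was 76.1 on rescaled values and 44.4 to 71.4 without 1 library.

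The 4 pairs of same-numbered libraries had deviations that correlated at 0.0161 to 0.116, and 3 of 8 libraries correlated best with their own number, so the numbers were not taken as pairing. A replicate block gave 2578 calls in R4W against R1W. Of the 91 called named genes, 50 lost the call without R1W replicate 3, 28 without R4W replicate 4, 25 without R4W replicate 1 and 71 with the 8 libraries alone. Genes near 0 changed sign: Acta2 ranged from -0.12 to 0.15, Cdkn1a from -0.25 to 0.059, Lyz2 from -0.12 to 0.21 and Umod from -0.075 to 0.12 without 1 library. Lyz2 was -0.12 with R4W replicate 2 placed in R2W, and Umod was 0.066 on rescaled values. The cause was not tested for any of these. Genes with a mean under 1 are not analysed here.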
